A study of Homo sapiens with 12 samples.

Results

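Arterial endothelial cells carry a set of surface and signalling proteins that distinguish them from venous cells. Followed here in a human aortic endothelial line exposed to the Notch ligand DLL4 were 10 genes, not all of them arterial markers. They are the ephrin ligands EFNB2, EFNB1 and EFNA1, the Eph receptors EPHB4 and EPHA2, the gap junction connexins GJA4 and GJA5, the netrin receptor UNC5B, the kinase BMX, and DEPP1, a gene that FOXO transcription factors activate. The 10 symbols were taken from a table of 35587 symbols, and each was present. All 10 reached 1 TPM in at least 2 libraries, the rule that left 13299 genes for testing. TPM is a transcript abundance corrected for transcript length and scaled to a common total in each library, so levels of different genes can be set side by side. The cells were TeloHAEC, aortic endothelial cells immortalised with telomerase. The groups were NT cells (control, genotype labelled wild type), TKO cells (Cas9 and a guide RNA against TSPAN14) and NKO cells (Cas9 and a guide RNA against NOTCH1), each on plates coated with IgG or with DLL4 at 2.5 mg/mL, and RNA was taken after 24 hours. Each of the 6 groups had 2 libraries, called biological replicates in the labels, which do not say that they came from separate cultures, so p-values measure the spread between these libraries. Each targeted gene was represented by 1 line, and whether a line was a clone or a pool was not given in the sources used here. A difference between lines therefore cannot be told apart from other differences that the lines may carry.

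Ephrins are ligands held in the membrane, and they signal by contact to Eph receptor tyrosine kinases on a neighbouring cell while also signalling back into the cell that bears them. In blood vessels ephrin-B2, the product of EFNB2, marks arteries, and its receptor EphB4 marks veins. Connexin 37 (GJA4) and connexin 40 (GJA5) form the gap junctions of arterial endothelium. Notch signalling is known to promote arterial fate. DLL4 is its main ligand in arteries, and TSPAN14 belongs to the tetraspanins that accompany ADAM10, the protease that cuts Notch receptors after ligand binding.

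RefSeq promoter windows (build GRCh38.p14, 250 bases before to 50 bases after an annotated gene start) were given for 8 of the 10 genes, as 10 windows, and not for GJA4 and UNC5B. The windows of 4 genes are shown because the levels of these genes differed most in kind: EFNB2 and EFNA1 are ephrin ligands with unlike responses in the edited lines, GJA5 was listed at 0 without DLL4, and DEPP1 was highest in TKO cells. Capitals mark matches to GTGGGAA or GTGAGAA (forms of the site bound by RBPJ, the DNA-binding partner of Notch), to TATAAA, or to GTAAACA (a form of the forkhead site, added to the search after the DEPP1 window had been seen), each searched on both strands. No match overlapped another.
EFNB2, chr13:106535613-106535912, minus strand: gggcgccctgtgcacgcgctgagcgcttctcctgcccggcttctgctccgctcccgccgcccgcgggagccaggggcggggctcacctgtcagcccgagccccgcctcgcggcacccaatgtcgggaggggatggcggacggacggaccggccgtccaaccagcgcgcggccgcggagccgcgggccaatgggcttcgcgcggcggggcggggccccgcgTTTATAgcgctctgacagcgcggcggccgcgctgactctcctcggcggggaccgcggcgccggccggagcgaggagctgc
EFNA1, chr1:155127626-155127925, plus strand: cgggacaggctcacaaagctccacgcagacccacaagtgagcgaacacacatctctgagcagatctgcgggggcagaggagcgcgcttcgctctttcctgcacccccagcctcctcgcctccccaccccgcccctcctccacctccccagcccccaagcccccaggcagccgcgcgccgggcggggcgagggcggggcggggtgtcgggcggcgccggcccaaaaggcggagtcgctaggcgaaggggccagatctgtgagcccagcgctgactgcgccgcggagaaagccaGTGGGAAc
GJA5, chr1:147773302-147773601, minus strand: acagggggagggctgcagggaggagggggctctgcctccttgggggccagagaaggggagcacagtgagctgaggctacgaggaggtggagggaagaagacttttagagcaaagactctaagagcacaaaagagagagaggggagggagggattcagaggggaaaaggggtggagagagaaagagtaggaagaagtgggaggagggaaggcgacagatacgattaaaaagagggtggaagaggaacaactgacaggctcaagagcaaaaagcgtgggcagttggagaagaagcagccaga
DEPP1, chr10:44978760-44979059, minus strand: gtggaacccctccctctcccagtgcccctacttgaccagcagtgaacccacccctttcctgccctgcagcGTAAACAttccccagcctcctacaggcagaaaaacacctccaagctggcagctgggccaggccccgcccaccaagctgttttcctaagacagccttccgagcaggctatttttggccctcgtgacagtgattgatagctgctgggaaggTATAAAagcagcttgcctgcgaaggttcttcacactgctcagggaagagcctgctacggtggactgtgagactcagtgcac
GTGGGAA was in the window of EFNA1 only, starting at base 293, among the 10 windows, and in 6.25% of all 35116 promoter windows. GTGAGAA was in 2 of the 10 windows, those of EPHA2 and of 1 of the 2 starts of BMX, and in 4.45% of all windows. TATAAA was in the windows of EFNB2 (reverse strand, base 221) and DEPP1 (base 220), and in 11.5% of all. GTAAACA was in the DEPP1 window at base 71 and in 3.42% of all. The EFNB2 window held 49 CG pairs, that of EPHB4 36 and that of EFNA1 28, against a median of 14 over all windows, while the windows of DEPP1 (6) and GJA5 (4 and 0 at its 2 starts) held few. A match describes the letters of a window and not a bound site.

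The libraries of a group correlated at 0.987 to 0.992 across tested genes on the log2 scale. TSPAN14 mRNA was lower in TKO than in NT cells, by 0.57 ± 0.10 (SE) on IgG and 0.68 ± 0.10 on DLL4 (limma adjusted p = 0.00149 and 0.000385), and NOTCH1 mRNA in NKO cells was not below NT on IgG by the test (-0.10 ± 0.16, limma adjusted p = 0.720), while on DLL4 it was lower (-0.61 ± 0.16, limma adjusted p = 0.0225). An edit can end protein production without removing the mRNA, and protein was not measured in the data used here. All 12 endothelial markers were at 1 TPM or more in all 12 libraries. Fibroblast markers summed to at most 5.39 TPM and leukocyte markers to at most 68.2 TPM, with CD68 at 27.3 to 64.3 TPM, CD14 at 0.0423 to 9.65 TPM, PTPRC at most 0.744 TPM and HLA-DRA at 0. Keratins KRT8 and KRT18 were present while EPCAM was at most 0.210 TPM and KRT5 and KRT14 at 0. Smooth muscle and pericyte markers summed to 224 to 246 TPM in NT cells on IgG and 257 to 299 on DLL4, to 155 to 174 and about 103 in TKO cells, and to 143 to 154 and 118 to 129 in NKO cells. That sum came from SMTN and RGS5, with MYH11 at most 0.925 TPM and DES at most 0.0289 TPM. The part of this difference in the results was not tested. The pseudogene entry KPNA2P2 took 0.280% to 5.61% of a library's TPM. Libraries are named by the numbers in their column names.

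DLL4 raised 7 of the 10 genes in NT cells and lowered 2. EFNB2, GJA4, GJA5, UNC5B, EFNA1, EPHB4 and DEPP1 rose, EFNB1 and BMX fell, and EPHA2 did not pass the test. Across all genes tested 16.0% changed, 7.68% upward and 8.34% downward, by limma with an adjusted p under 0.05. GJA4 and GJA5 reached 1 TPM only in the NT libraries on DLL4, so they could pass the expression filter only by differing there, and of the other 8 genes 5 rose and 2 fell. The median difference of log2(TPM + 1) was 1.18 over the 10 genes and 1.06 without the 2 connexins, beside 0.01 over all genes. In bulk RNA, fewer cells expressing a gene and less RNA per cell cannot be told apart.

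In TKO cells the same coating raised 3 of the 10 genes (EFNB2, EFNA1 and EPHB4) and lowered 1 (EPHA2), where 6.51% of all genes changed, 4.11% upward and 2.41% downward. In NKO cells it raised EFNA1 and lowered none of the 10, where 0.782% of all genes changed, 0.511% upward and 0.271% downward. In those cells 2 genes were higher and 2 lower at an unadjusted limma p under 0.05. The median difference over the 10 genes was 0.15 in TKO and 0.13 in NKO cells, against 0.01 over all genes in each, and without the 2 connexins it was 0.06 and 0.13. In TKO cells the count was 2 without IgG library 2, DLL4 library 2 or DLL4 library 3, and in NKO cells it was 0 without IgG library 1 or DLL4 library 2.

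**Figure D1:**
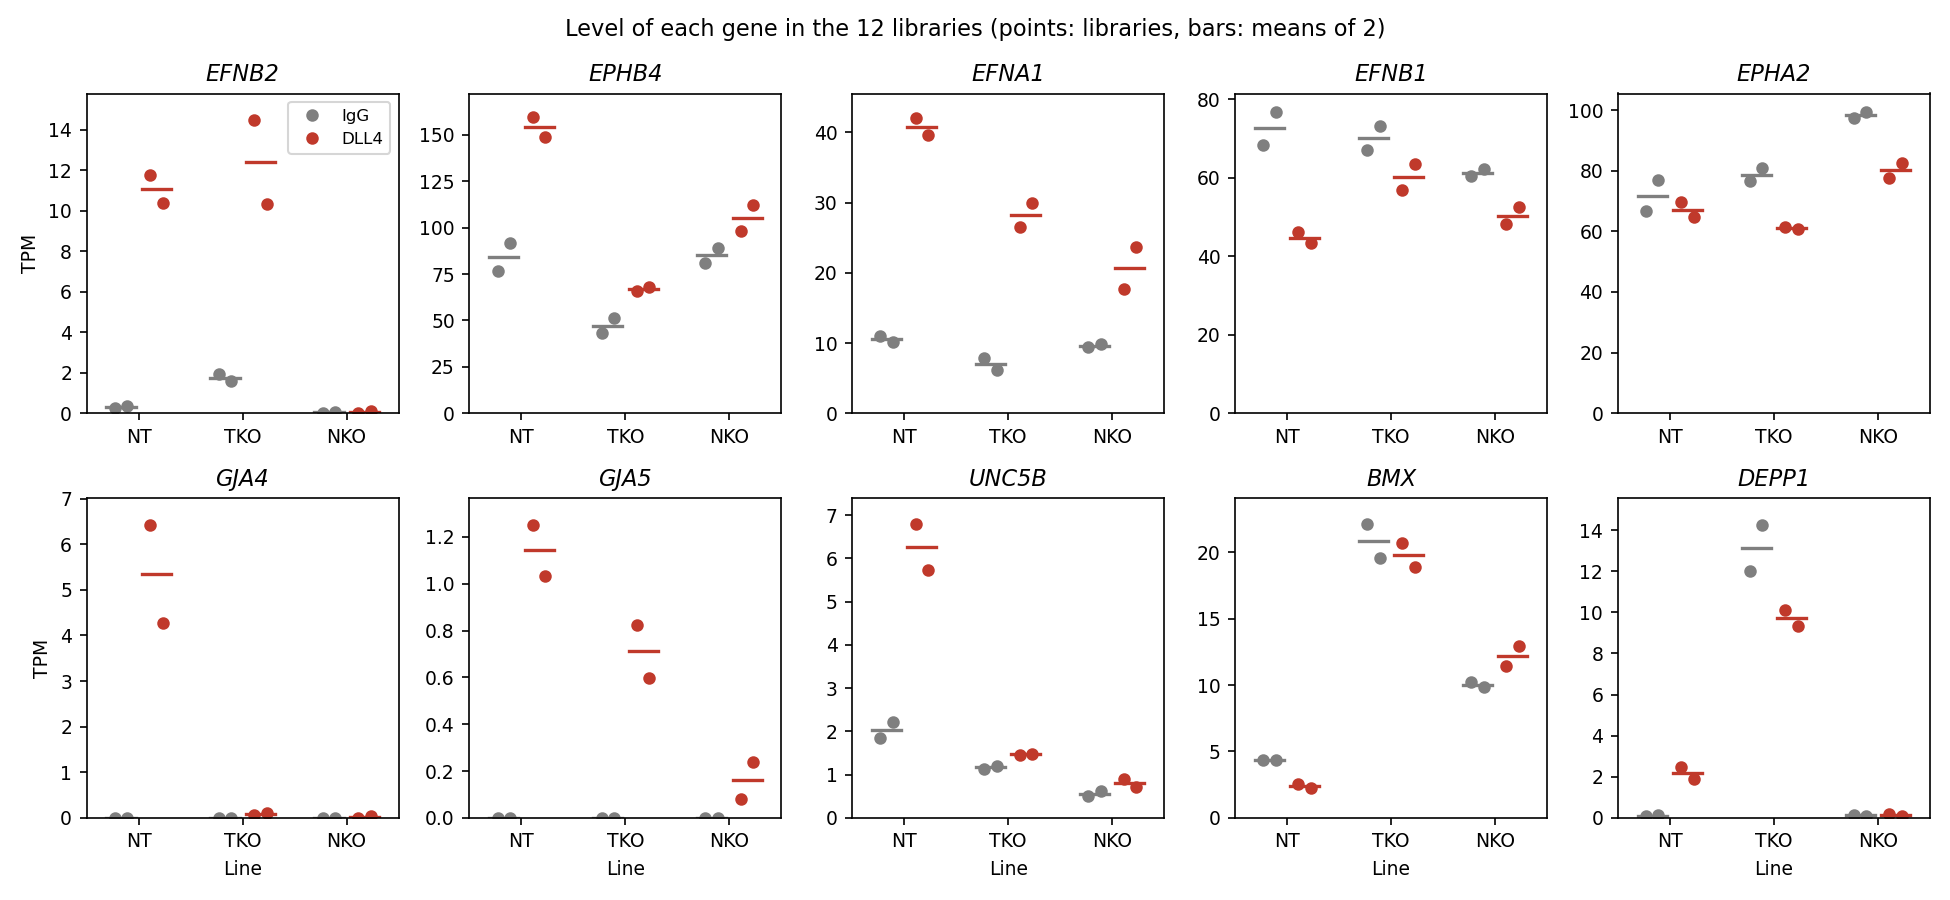
Level of each of the 10 genes in TPM (vertical axis, linear, from 0) in the 2 libraries of each line on IgG (grey) and DLL4 (red); points are libraries and bars are means of 2. EFNB2 was high on DLL4 in NT and TKO cells and near 0 in NKO cells, GJA4 was above 1 TPM only in NT cells on DLL4, and BMX was higher in both edited lines than in NT cells.

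EFNB2 (chromosome 13, 106489731 to 106535662, minus strand; gene positions here are from GENCODE 29 on GRCh38) went from under 1 TPM to over 10 TPM in NT cells. In NT cells it was at 0.274 and 0.344 TPM on IgG and at 11.8 and 10.4 TPM on DLL4. TKO cells started higher, at 1.92 and 1.59 TPM on IgG, and reached 14.5 and 10.4 TPM on DLL4. NKO cells held 0.0262 and 0.0660 TPM on IgG and 0.0158 and 0.131 TPM on DLL4. The DLL4 libraries thus lay clear of the IgG libraries in NT and TKO cells and overlapped them in NKO cells. The mean level rose 35.9-fold in NT cells (log2 difference 3.21 ± 0.19, limma adjusted p = 2.25e-06) and 7.07-fold in TKO cells (2.27 ± 0.19, limma adjusted p = 5.45e-05). The difference in NKO cells was 0.04 ± 0.19 (limma adjusted p = 0.991). Differences are of log2(TPM + 1) throughout, which understates the change of a gene near or below 1 TPM.

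On IgG, EFNB2 was 5.68-fold higher in TKO than in NT cells (1.07 ± 0.19, limma adjusted p = 0.00164), and on DLL4 the TKO and NT libraries overlapped (0.13 ± 0.19, limma adjusted p = 0.667). NKO cells on DLL4 had 0.662% of the NT level (-3.49 ± 0.19, limma adjusted p = 1.17e-06). On IgG, where both were under 1 TPM, NKO libraries were also below NT libraries, with 14.9% of the NT level. That difference did not pass (-0.32 ± 0.19, limma adjusted p = 0.308), but did with a pseudocount of 0.1 (-1.49, limma adjusted p = 0.0377). By the test of the difference in response, NKO cells responded less than NT cells by 3.17 ± 0.27 (limma adjusted p = 0.000405). TKO cells responded more than NKO cells by 2.23 ± 0.27 (limma adjusted p = 0.0104). The second of these calls ended without TKO library DLL4 2 (limma adjusted p = 0.0541) or NKO library DLL4 1 (0.0687), with a pseudocount of 0.1 (0.236) and in a fit of the 8 TKO and NKO libraries alone (0.106), and its adjusted p ranged from 0.00512 to 0.236 over the alternatives. The TKO response was 0.94 below that of NT cells with a 95% interval of the difference from -1.52 to -0.35 and did not pass the adjusted test (limma adjusted p = 0.135).

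EFNA1 (chromosome 1, 155127460 to 155134857, plus strand) encodes a ligand of EphA receptors that is tethered to the membrane by a lipid anchor. It passed the adjusted test for a rise in each of the 3 lines. The DLL4 libraries of EPHB4, UNC5B and GJA5 were also above the IgG libraries in each line, without passing in each. The share of all genes with such a separation was not counted, so it is not read as a response. GJA5 was listed at 0 in every IgG library, so any level on DLL4 lay above. For EFNA1, NT cells held 11.01 and 10.2 TPM on IgG and 42.0 and 39.6 on DLL4. The corresponding levels were 7.83 and 6.23 on IgG and 26.6 and 29.9 on DLL4 in TKO cells, and 9.39 and 9.86 on IgG and 17.7 and 23.6 on DLL4 in NKO cells. DLL4 and IgG libraries did not overlap in any line. The rise was 3.85-fold in NT cells (1.85 ± 0.15, limma adjusted p = 1.87e-05), 4.02-fold in TKO cells (1.87 ± 0.15, limma adjusted p = 3.55e-05) and 2.15-fold in NKO cells (1.02 ± 0.15, limma adjusted p = 0.00750). The NKO call ended without NKO library IgG 1 (limma adjusted p = 0.0815) or DLL4 2 (0.0887), with no filter (0.103) and in a fit of the 4 NKO libraries alone (0.364), and over all alternatives its adjusted p ranged from 0.00306 to 0.364.

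The EFNA1 responses of TKO and NT cells differed by 0.02 ± 0.21, with a 95% interval from -0.43 to 0.47. The NKO response was 0.84 ± 0.21 below the NT response (95% interval -1.29 to -0.38) and did not pass the adjusted test (limma adjusted p = 0.108). Against NT on the same coating, EFNA1 was lower in TKO cells by 0.54 ± 0.15 on IgG and 0.52 ± 0.15 on DLL4 (limma adjusted p = 0.0186 and 0.0220). Those calls were close to the threshold. The first ended without NT library IgG 2 (limma adjusted p = 0.103), NT library IgG 3 (0.0552) or TKO library IgG 3 (0.141), and the second without any 1 of the 4 libraries compared (0.0503 to 0.156). With no filter they ended too (0.0950 and 0.107), as did the first in a fit of the 4 libraries alone (0.0834). Over the alternatives the first ranged from 0.0144 to 0.141 and the second from 0.0176 to 0.156. On DLL4 the NKO level was 50.7% of NT (-0.96 ± 0.15, limma adjusted p = 0.00104).

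EFNB1 (chromosome X, 68828997 to 68842147, plus strand), the other ephrin-B ligand expressed here, fell in NT cells while EFNB2 rose. It was at 68.5 and 76.7 TPM on IgG and at 46.1 and 43.3 on DLL4, a fall of 0.69 ± 0.09 (limma adjusted p = 0.000752). TKO cells went from 67.1 and 73.1 TPM to 57.0 and 63.5, and NKO cells from 60.4 and 62.2 to 48.3 and 52.5. DLL4 libraries were below IgG libraries in both edited lines, but the differences of -0.22 ± 0.09 and -0.28 ± 0.09 did not pass the test (limma adjusted p = 0.234 and 0.314). On DLL4, EFNB1 was 1.35-fold higher in TKO than in NT cells (0.42 ± 0.09, limma adjusted p = 0.00588). The call was lost when NT library DLL4 3 (limma adjusted p = 0.0513) or TKO library DLL4 3 (0.0685) was left out, and its adjusted p ranged from 0.00460 to 0.0685 over the alternatives. EFNB2 made up 0.398% and 0.446% of the summed EFNB1 and EFNB2 level in NT cells on IgG and 20.4% and 19.4% on DLL4. In TKO cells that share was 2.78% and 2.13% on IgG and 20.2% and 14.01% on DLL4, and in the NKO libraries it was at most 0.249%.

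The receptor gene EPHB4 (chromosome 7, 100802565 to 100827521, minus strand) was among the most abundant of the 10 genes. NT cells held 76.8 and 91.8 TPM on IgG and 159.8 and 149.0 on DLL4. TKO cells were lower on both coatings, at 43.0 and 51.2 TPM on IgG and 65.8 and 67.8 on DLL4. NKO cells held 81.0 and 89.1 TPM on IgG, inside the NT range, and 98.1 and 112 on DLL4. No IgG library overlapped a DLL4 library of the same line. EPHB4 rose 1.83-fold in NT cells (0.87 ± 0.11, limma adjusted p = 0.000617) and 1.42-fold in TKO cells (0.50 ± 0.11, limma adjusted p = 0.0258). The difference of 0.30 ± 0.11 in NKO cells did not pass (limma adjusted p = 0.419). The TKO call ended without TKO library IgG 2, DLL4 2 or DLL4 3 (limma adjusted p = 0.135, 0.119 and 0.164), with no filter (0.164), with no variance trend (0.0611) and in a fit of the 4 TKO libraries alone (0.117), within a range of 0.0153 to 0.164 over the alternatives.

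Against NT cells, EPHB4 was lower in TKO cells without ligand (-0.83 ± 0.11, limma adjusted p = 0.000346) and with DLL4, where it had 43.3% of the NT level (-1.20 ± 0.11, limma adjusted p = 1.89e-05). In NKO cells it was lower on DLL4 (-0.55 ± 0.11, limma adjusted p = 0.00644) and not on IgG (0.02 ± 0.11). The NKO call ended without NT library DLL4 2 (limma adjusted p = 0.0508) or NKO library DLL4 1 (0.0616) and with no filter (0.0593), and ranged from 0.00374 to 0.0616 over the alternatives. The responses of TKO and NKO cells were below the NT response by 0.37 ± 0.16 and 0.57 ± 0.16, and neither difference passed the test (limma adjusted p = 0.303 and 0.160; 95% intervals -0.73 to -0.01 and -0.93 to -0.21). The gene SLC12A9 overlaps EPHB4 on the opposite strand and stayed between 23.2 and 33.1 TPM in the 12 libraries.

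EPHA2 (chromosome 1, 16124337 to 16156087, minus strand), the main EphA receptor of many endothelial cells, moved little. NT libraries overlapped, at 66.6 and 76.8 TPM on IgG and 69.6 and 64.6 on DLL4. TKO cells went from 76.7 and 80.8 TPM on IgG to 61.5 and 60.6 on DLL4, and NKO cells from 97.3 and 99.5 to 77.5 and 82.7. The fall in TKO cells was 0.36 ± 0.09 (limma adjusted p = 0.0307). It ended without any 1 of the 4 TKO libraries (limma adjusted p = 0.0697 to 0.183), with no filter (0.0953), with no variance trend (0.0691) and in a fit of the TKO libraries alone (0.0831), and ranged from 0.0126 to 0.183 over the alternatives. The difference of -0.29 ± 0.09 in NKO cells did not pass (limma adjusted p = 0.219). On IgG, EPHA2 was 1.37-fold higher in NKO than in NT cells (0.46 ± 0.09, limma adjusted p = 0.00633). The call was lost when NT library IgG 2 was left out (limma adjusted p = 0.0568) and in a fit of the 4 libraries alone (0.1001), within a range of 0.00298 to 0.1001.

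Set against each other within a library, ligand and receptor showed where the 3 lines stood. There were 0.356 and 0.375 TPM of EFNB2 per 100 TPM of EPHB4 in NT cells on IgG and 7.38 and 6.99 on DLL4. In TKO cells there were 4.46 and 3.10 on IgG and 21.99 and 15.3 on DLL4, above the NT values on both coatings, since EFNB2 was as high as or higher than in NT cells and EPHB4 was lower. The 4 NKO libraries held 0.0162 to 0.117. EFNA1 per 100 TPM of EPHA2 went from 16.5 and 13.2 to 60.3 and 61.3 in NT cells, from 10.2 and 7.71 to 43.2 and 49.4 in TKO cells, and from 9.65 and 9.92 to 22.9 and 28.6 in NKO cells. These ratios are a description and were not tested.

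**Figure D2:**
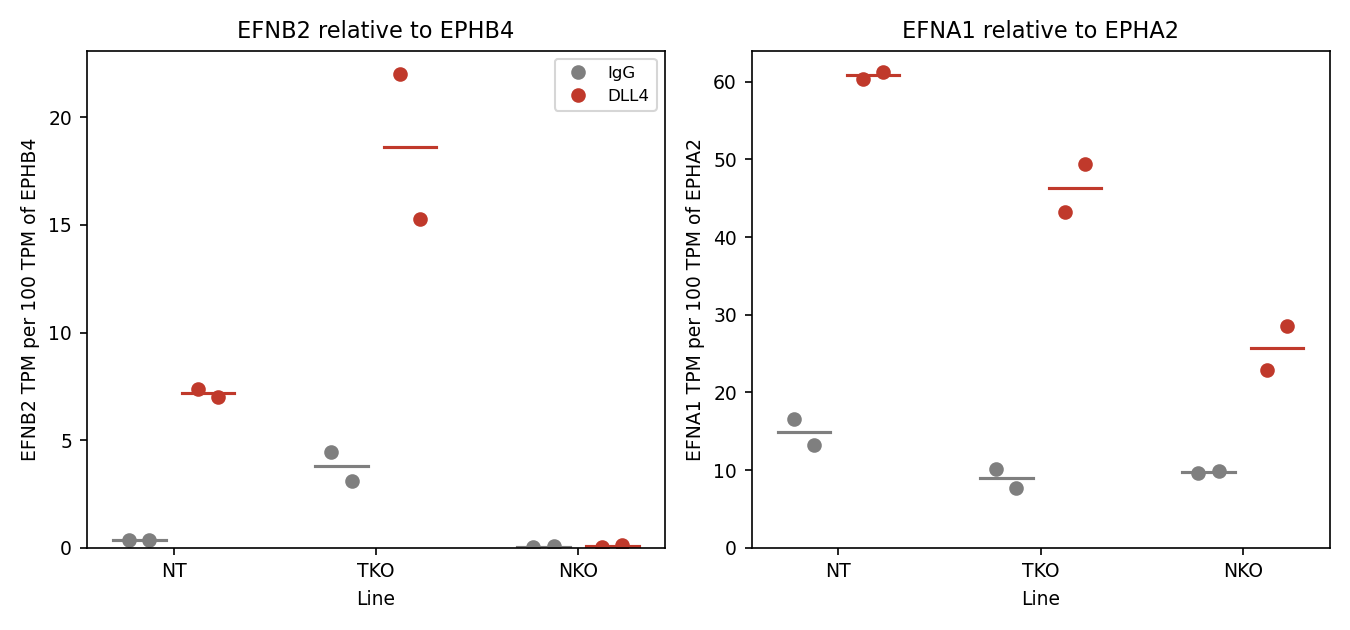
Ligand level relative to receptor level in each library (points; bars are means of 2), as TPM of EFNB2 per 100 TPM of EPHB4 (left) and TPM of EFNA1 per 100 TPM of EPHA2 (right), on IgG (grey) and DLL4 (red). The EFNB2 ratio was highest in TKO cells on DLL4 (21.99 and 15.3) and at most 0.117 in NKO cells, while the EFNA1 ratio was higher on DLL4 in each of the 3 lines.

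The other Eph receptors and ephrins were taken from a list of 17 genes, of which 7 were tested. In NT cells 1 of the 7 rose and none fell, with a median of 0.09 (0.01 over all genes, of which 7.68% rose). The gene that rose was EFNA5, an EphA ligand (0.71 ± 0.15, limma adjusted p = 0.0104). It rose in TKO cells as well (0.86 ± 0.15, limma adjusted p = 0.00676), where 4.11% of all genes rose. None of the 7 changed in NKO cells by the adjusted test, where 0.782% of all genes changed. Against NT on IgG, EFNA4 and EFNA5 were lower and the receptor genes EPHB3 and EPHA4 higher in TKO cells, and EPHB3 was higher in NKO cells. Among all genes tested 15.2% were higher and 12.4% lower in TKO cells, and 4.92% and 5.74% in NKO cells. EPHB3 was at 4.39 and 6.12 TPM in NT cells on IgG, while TKO cells held 11.1 and 10.9 TPM and NKO cells 12.1 and 16.6 TPM (0.95 ± 0.23 and 1.29 ± 0.23, limma adjusted p = 0.0106 and 0.00472). Both comparisons use the same NT libraries.

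The connexins were the members nearest to an on and off pattern. GJA4 (chromosome 1, 34792998 to 34795747, plus strand) was listed at 0 in all 6 IgG libraries. On DLL4 it was at 6.42 and 4.27 TPM in NT cells, at 0.0608 and 0.106 in TKO cells, and at 0 and 0.0486 in NKO cells. The NT difference was 2.65 ± 0.22 (limma adjusted p = 2.57e-05), and no fold is given against a group listed at 0. Those of TKO and NKO cells were 0.12 ± 0.22 and 0.03 ± 0.22. On DLL4, TKO cells had 1.56% and NKO cells 0.454% of the NT level (limma adjusted p = 9.41e-06 and 1.83e-05). The response of TKO cells was 2.53 ± 0.31 below that of NT cells (limma adjusted p = 0.00750) and that of NKO cells 2.61 ± 0.31 (limma adjusted p = 0.00276). Both calls ended with a pseudocount of 0.1 (limma adjusted p = 0.111 and 0.0824), and the first without TKO library DLL4 3 (0.0517). Their ranges over the alternatives were 0.00195 to 0.111 and 0.000857 to 0.0824. Groups listed at 0 add degrees of freedom but no spread, which lowers the pooled error of GJA4 and favours these calls. The rest of that error comes from the other groups and from moderation. GJA4 also reached 1 TPM only in NT cells on DLL4, so it entered the test through the group where it is high. Its p-values are therefore not independent support for a difference there.

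GJA5 (chromosome 1, 147756199 to 147773362, minus strand) was likewise listed at 0 in every IgG library, but on DLL4 it followed a graded order. NT cells held 1.25 and 1.03 TPM, TKO cells 0.825 and 0.597, and NKO cells 0.0821 and 0.239, with no overlap between the 3 lines. It rose in NT cells (1.10 ± 0.21, limma adjusted p = 0.00512). The limits given for GJA4, entry through NT cells on DLL4 and groups at 0 without spread, hold for GJA5 too. In TKO cells the difference of 0.77 ± 0.21 lay just outside the threshold (limma adjusted p = 0.0509, and 0.00424 to 0.273 over the alternatives). In NKO cells it was 0.21 ± 0.21 (limma adjusted p = 0.844). TKO cells on DLL4 had 62.2% of the NT level, a difference that did not pass (-0.33 ± 0.21, limma adjusted p = 0.295; 95% interval -0.78 to 0.13), and NKO cells had 14.05% (-0.89 ± 0.21, limma adjusted p = 0.0117). The NKO call ended without NT library DLL4 2 (limma adjusted p = 0.0709) or NKO library DLL4 1 (0.0794) and with a pseudocount of 0.1 (0.0641), within a range of 0.000705 to 0.0794. TKO cells therefore had 1.56% of the NT level of GJA4 and 62.2% of that of GJA5; the difference between the 2 genes was not tested.

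Of 22 other connexin and pannexin genes 6 were tested, and in NT cells 2 rose and none fell (median 0.15), where 7.68% of all genes rose and 8.34% fell. These were GJA1, which encodes connexin 43, from 113 and 108 to 204 and 189 TPM (0.83 ± 0.15, limma adjusted p = 0.00467), and GJC1, which encodes connexin 45 (0.60 ± 0.15, limma adjusted p = 0.0201). GJA1 was thus far more abundant than GJA4 or GJA5 in these cells. In TKO cells none of the 6 rose and PANX1, a pannexin channel gene, fell (-0.50 ± 0.13, limma adjusted p = 0.0490), and in NKO cells none changed by the adjusted test. Among all genes tested 4.11% rose and 2.41% fell in TKO cells, and 0.782% changed in NKO cells. On IgG 1 of the 6 was higher and 2 lower in TKO than in NT cells, and 0 were higher and 2 lower in NKO cells. Over all genes 15.2% were higher and 12.4% lower in TKO cells, and 4.92% and 5.74% in NKO cells. PANX1 was the higher one (0.56 ± 0.13, limma adjusted p = 0.00949). GJA3, a connexin of the lens, was lower in both edited lines (-0.85 ± 0.19 and -0.78 ± 0.19, limma adjusted p = 0.00690 and 0.0259). So was PANX2 (-1.11 ± 0.18 and -0.75 ± 0.18, limma adjusted p = 0.00111 and 0.0255). Both comparisons use the same NT libraries. GJA3 reached 1 TPM only in NT cells (1.11 and 1.24 TPM on IgG), so it could pass the expression filter only by being higher there.

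UNC5B (chromosome 10, 71212570 to 71302864, plus strand) encodes a netrin receptor of arterial and tip endothelial cells. It was at 1.85 and 2.21 TPM in NT cells on IgG and at 6.80 and 5.72 on DLL4. TKO cells held 1.14 and 1.19 TPM on IgG and 1.45 and 1.49 on DLL4, and NKO cells 0.497 and 0.626 on IgG and 0.905 and 0.717 on DLL4. The 6 groups did not overlap, and each edited line on DLL4 remained below NT cells on IgG. UNC5B rose 3.08-fold in NT cells (1.26 ± 0.17, limma adjusted p = 0.000732), and the differences in TKO cells (0.19 ± 0.17) and NKO cells (0.21 ± 0.17) did not pass. On DLL4 it was at 23.4% of NT in TKO cells (-1.55 ± 0.17, limma adjusted p = 5.05e-05) and at 12.95% in NKO cells (-2.00 ± 0.17, limma adjusted p = 1.94e-05). On IgG it was lower in NKO cells (-0.96 ± 0.17, limma adjusted p = 0.00445), a call that ended in a fit of the 4 libraries alone (limma adjusted p = 0.0524; 0.000858 to 0.0524 over the alternatives). In TKO cells on IgG the difference of -0.48 ± 0.17 missed the threshold (limma adjusted p = 0.0560, and 0.0115 to 0.241). The responses of TKO and NKO cells were below that of NT cells by 1.07 ± 0.24 and 1.05 ± 0.24, with intervals of -1.60 to -0.54 and -1.57 to -0.52, and missed the adjusted threshold (limma adjusted p = 0.0844 and 0.0857). Both passed with no variance trend (limma adjusted p = 0.0302 and 0.0259), and over the alternatives they ranged from 0.0302 to 0.240 and from 0.0259 to 0.258.

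Netrin, SLIT and ROBO genes and other guidance genes gave 8 tested of 24 listed. In NT cells 2 rose and none fell (median 0.31, against 7.68% of all genes that rose), and the same 2 rose in TKO cells. Among all genes tested 4.11% rose in TKO cells and 0.511% in NKO cells. NTN4, which encodes a netrin of basement membranes, went from 27.2 and 28.3 to 80.8 and 75.9 TPM in NT cells (1.46 ± 0.10, limma adjusted p = 6.40e-06), and it was the gene of this list that rose in NKO cells (0.94 ± 0.10, limma adjusted p = 0.00136). SLIT2, which encodes a ligand of ROBO receptors, was at 0.215 and 0.167 TPM in NT cells on IgG and at 7.88 and 9.91 in TKO cells (3.05 ± 0.20, limma adjusted p = 1.19e-06). Against NT on IgG, 5 of the 8 were higher in TKO cells and 1 lower, and 1 was higher and none lower in NKO cells. Over all genes 15.2% were higher and 12.4% lower in TKO cells, and 4.92% and 5.74% in NKO cells, so a single gene of 8 is near the background. The one lower in TKO cells was FLRT2, which encodes a membrane protein that binds UNC5 receptors, at 0.667 and 1.38 TPM against 8.47 and 8.87 in NT cells (-2.28 ± 0.40, limma adjusted p = 0.00175).

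**Figure D3:**
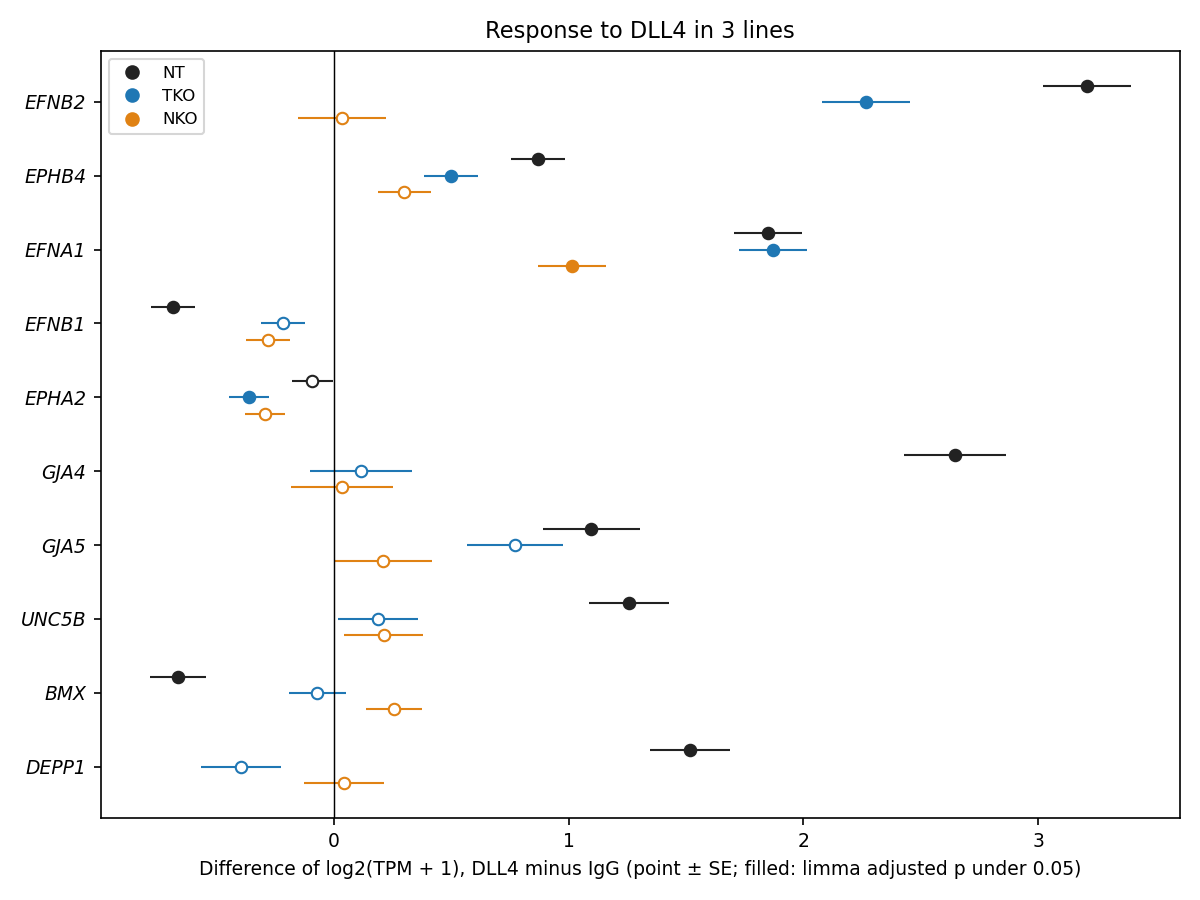
Difference of log2(TPM + 1) between DLL4 and IgG for the 10 genes (horizontal axis; points with SE of the limma fit) in NT (black), TKO (blue) and NKO cells (orange); filled points passed an adjusted p of 0.05. In NT cells 9 genes passed, in TKO cells 4 and in NKO cells 1, EFNA1, beside 16.0%, 6.51% and 0.782% of all genes tested. GJA4 and GJA5, among the 9, reached 1 TPM only in NT cells on DLL4 and could pass the expression filter only by differing there.

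On the log2(TPM + 1) scale, the largest differences from NT cells on IgG among the 10 genes were those of DEPP1 and BMX in TKO cells. By ratio of mean TPM, EFNB2 came before BMX, at 5.68-fold higher in TKO and 6.70-fold lower in NKO cells. Both ratios rest on an NT mean of 0.309 TPM, and the NKO difference did not pass (-0.32 ± 0.19, limma adjusted p = 0.308). BMX (chromosome X, 15464246 to 15556529, plus strand) encodes a TEC family tyrosine kinase found in arterial endothelium and endocardium. NT cells held 4.33 and 4.37 TPM on IgG and 2.56 and 2.21 on DLL4. TKO cells held 22.2 and 19.6 on IgG and 20.7 and 18.9 on DLL4, and NKO cells 10.2 and 9.86 on IgG and 11.5 and 12.97 on DLL4. All 8 libraries of the edited lines were above all 4 NT libraries. The fall in NT cells was 0.66 ± 0.12 (limma adjusted p = 0.00434). It missed the threshold in a fit of the 4 NT libraries alone (limma adjusted p = 0.0532; 0.00144 to 0.0532 over the alternatives). It did not pass in TKO cells (-0.07 ± 0.12) or in NKO cells (0.26 ± 0.12), where the DLL4 libraries were above the IgG libraries.

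Against NT cells, BMX was 4.80-fold higher in TKO cells without ligand (2.03 ± 0.12, limma adjusted p = 6.98e-07) and 8.32-fold higher with it (2.62 ± 0.12, limma adjusted p = 1.16e-07). In NKO cells it was 2.31-fold higher on IgG (1.05 ± 0.12, limma adjusted p = 0.000294) and 5.13-fold higher on DLL4 (1.97 ± 0.12, limma adjusted p = 2.08e-06). The NKO response was 0.92 ± 0.17 above the NT response (limma adjusted p = 0.0407). That call ended without any 1 of the 8 libraries compared (limma adjusted p = 0.0808 to 0.147), in a fit of those libraries alone (0.116) and with the replicate number as a block (0.0515), and its adjusted p ranged from 0.0180 to 0.147 over the alternatives. The gene PIR overlaps BMX on the opposite strand and was between 75.4 and 112 TPM. Among the other TEC kinases, BTK, a kinase best known from B cells, was the 1 of 4 tested. It was higher in TKO than in NT cells on DLL4, at 37.5 and 27.7 against 13.8 and 14.7 TPM (1.13 ± 0.26, limma adjusted p = 0.00724).

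DEPP1 (chromosome 10, 44970981 to 44978810, minus strand) was near 0 in NT cells on IgG, at 0.0771 and 0.125 TPM, and at 2.46 and 1.88 on DLL4. TKO cells held 12.03 and 14.3 TPM on IgG and 10.1 and 9.35 on DLL4, and the 4 NKO libraries held 0.0962 to 0.209. DLL4 raised it 21.4-fold in NT cells (1.52 ± 0.17, limma adjusted p = 0.000224). In TKO cells the DLL4 libraries were below the IgG libraries without passing the test (-0.39 ± 0.17, limma adjusted p = 0.236), and in NKO cells the libraries overlapped (0.04 ± 0.17). Without ligand, DEPP1 was 130-fold higher in TKO than in NT cells (3.68 ± 0.17, limma adjusted p = 1.42e-07), and on DLL4 it was 4.49-fold higher (1.77 ± 0.17, limma adjusted p = 2.05e-05). NKO cells did not differ from NT on IgG by the test (0.02 ± 0.17, limma adjusted p = 0.957) and had 7.05% of the NT level on DLL4 (-1.45 ± 0.17, limma adjusted p = 0.000195). The overlapping gene RASSF4, on the opposite strand, was between 0.508 and 2.54 TPM.

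The DEPP1 response of TKO cells was 1.91 ± 0.24 below that of NT cells (limma adjusted p = 0.00892), and that of NKO cells 1.47 ± 0.24 below (limma adjusted p = 0.0212). The TKO call ended without NT library DLL4 2 (limma adjusted p = 0.0527) or TKO library DLL4 3 (0.0643), within a range of 0.00304 to 0.0643 over the alternatives. The NKO call ended without 6 of the 8 libraries, all but NKO library IgG 2 and NT library DLL4 3, with adjusted p from 0.0598 to 0.102, and in a fit of the 8 libraries alone (limma adjusted p = 0.0764), within a range of 0.00803 to 0.102. Of 12 FOXO factors and target genes 10 were tested. In NT cells 5 rose and none fell (median 0.47, against 7.68% of all genes that rose), among them BCL6 (0.88 ± 0.18, limma adjusted p = 0.00852) and CCNG2, an atypical cyclin (0.92 ± 0.21, limma adjusted p = 0.0144). Against NT on IgG 3 were higher and 2 lower in TKO cells, where 15.2% of all genes were higher and 12.4% lower. CITED2 (1.61 ± 0.11, limma adjusted p = 1.98e-06) and IRS2, an adaptor of the insulin receptor (1.72 ± 0.19, limma adjusted p = 6.99e-05), were higher, and FOXO3 itself was lower (-0.62 ± 0.16, limma adjusted p = 0.0126). IRS2, counted among the 3 higher genes, reached 1 TPM only in TKO cells (2.04 and 2.62 TPM on IgG). It could thus pass the expression filter only by being higher there.

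**Figure D4:**
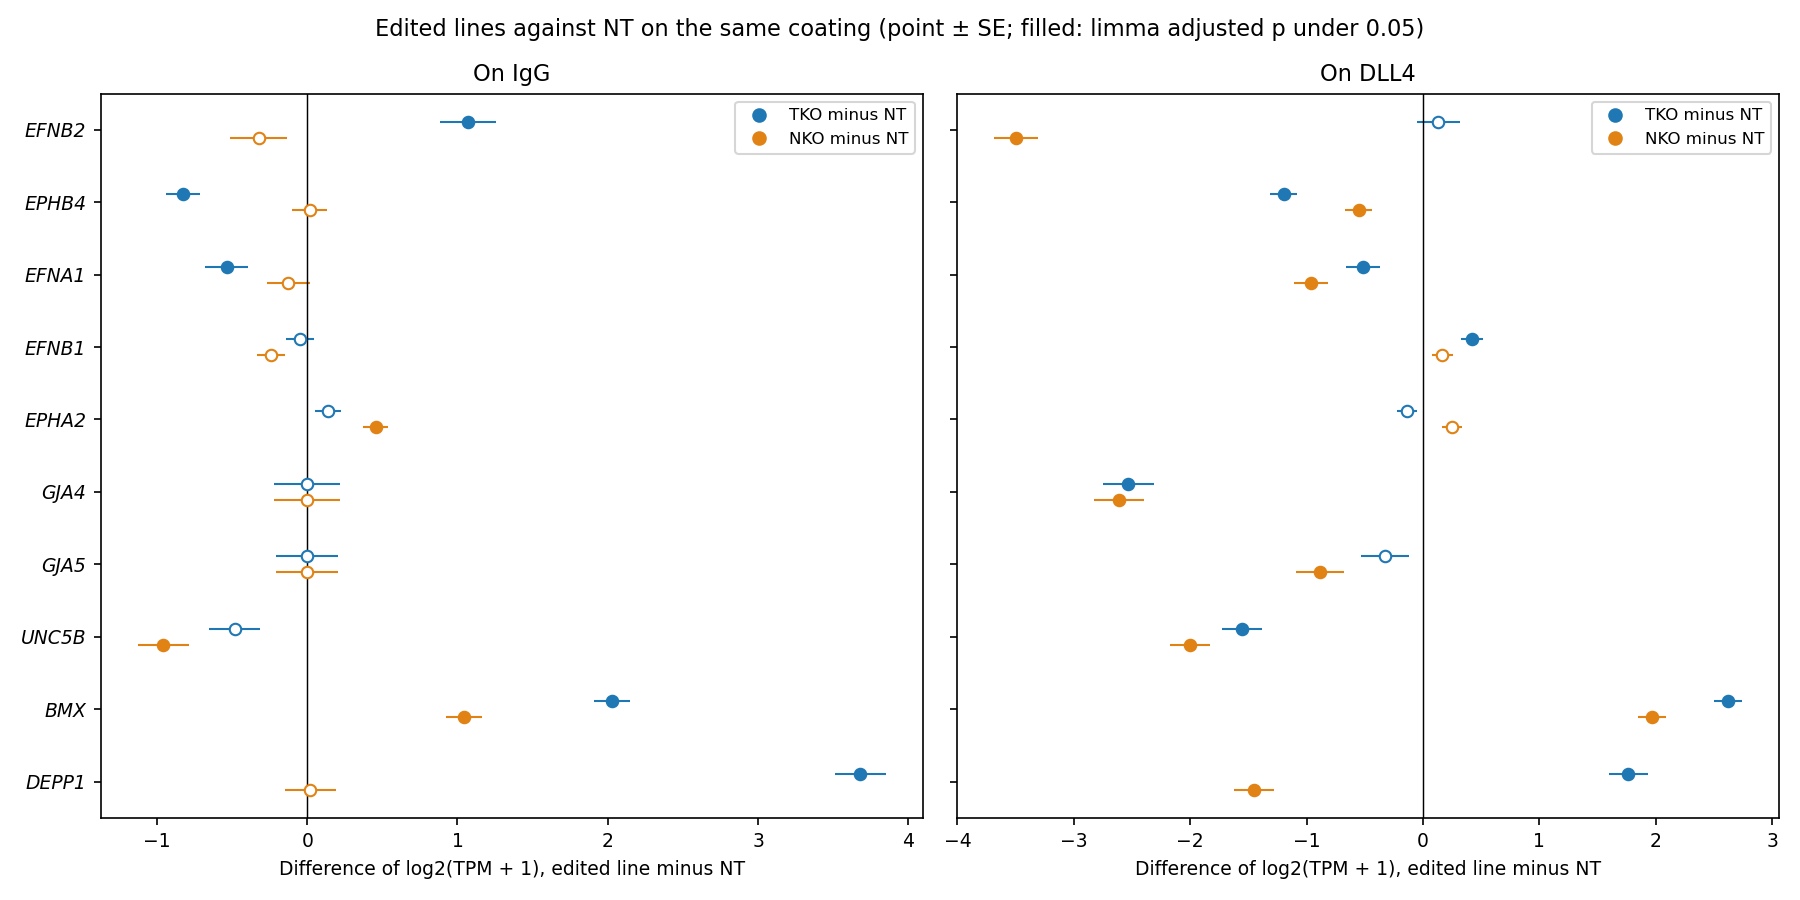
Difference of log2(TPM + 1) between each edited line and NT cells on IgG (left) and on DLL4 (right; the 2 panels have different horizontal scales) for the 10 genes, as points with SE of the limma fit; filled points passed an adjusted p of 0.05. The comparisons of TKO (blue) and NKO cells (orange) share the NT libraries of their panel. BMX was higher in both edited lines on both coatings, while UNC5B and GJA4 were lower in both on DLL4.

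Counted by line, 3 of the 10 genes were higher and 2 lower in TKO than in NT cells on IgG, where 27.6% of all genes tested differed (15.2% higher and 12.4% lower). On DLL4 3 were higher and 4 lower, where 26.6% of all genes differed (16.1% higher and 10.5% lower). In NKO cells 2 were higher and 1 lower on IgG, where 10.7% of all genes differed (4.92% higher and 5.74% lower). On DLL4 1 was higher and 7 lower, where 20.7% differed (11.4% higher and 9.31% lower). Of those 7, GJA4 and GJA5 had entered the test through the NT libraries on DLL4, and of the other 8 genes 1 was higher and 5 lower. For IgG the counts are thus of small numbers beside a high background. The 10 genes had a median difference of -0.92 in NKO cells on DLL4, beside 0.06 over all genes, and of -0.23 in TKO cells on DLL4, beside 0.03. Without GJA4 and GJA5 these medians were -0.76 and -0.00041, and in TKO cells on DLL4 3 of the other 8 genes were higher and 3 lower. TKO and NKO comparisons on a coating share its NT libraries, so their values are given side by side only.

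By the test of the difference in DLL4 response, TKO and NT cells differed for 2 of the 10 genes, GJA4 and DEPP1, both lower in TKO cells, where 0.526% of all genes differed (0.196% higher and 0.331% lower). NKO and NT cells differed for 4, with EFNB2, GJA4 and DEPP1 lower and BMX higher in NKO cells (0.887% of all genes, 0.316% higher and 0.571% lower). TKO and NKO cells differed for EFNB2 alone (0.150% of all genes, 0.0827% higher and 0.0677% lower). GJA4 had passed the filter only through NT cells on DLL4, where it is high, and among the 8 genes other than the 2 connexins the numbers were 1, 3 and 1. At an unadjusted limma p under 0.05 the numbers over the 10 genes were 8, 9 and 2. Without TKO library DLL4 3 the first count was 0, without NT library DLL4 2 it was 1, and the second was 2 without NT libraries IgG 2, IgG 3 or DLL4 2 or NKO libraries IgG 1, DLL4 1 or DLL4 2. The third was 0 without TKO library DLL4 2 or NKO library DLL4 1.

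A list of arterial genes outside these 10 was also examined. Of 18 listed 16 were tested, and on DLL4 10 rose and none fell in NT cells, 6 rose and none fell in TKO cells, and 3 rose and none fell in NKO cells, with medians of 0.67, 0.47 and 0.08. Over all genes 7.68%, 4.11% and 0.511% rose in the 3 lines. HEY2, a repressor that promotes arterial fate, rose in each of the 3 lines, by 2.23 ± 0.11 (NT), 0.93 ± 0.11 (TKO) and 0.58 ± 0.11 (NKO) (limma adjusted p = 6.28e-07, 0.000584 and 0.0398). The HEY2 response was below that of NT cells in both edited lines (TKO -1.30 ± 0.15, NKO -1.65 ± 0.15, limma adjusted p = 0.00750 and 0.000843). On IgG HEY2 was at 33.0 and 29.1 TPM in TKO and 11.1 and 11.5 in NT cells. On DLL4 it was at 63.3 and 56.4 against 58.1 and 54.8 TPM. SEMA3G, a semaphorin gene, also responded less in both edited lines than in NT cells (TKO -1.79 ± 0.28, NKO -2.20 ± 0.28, limma adjusted p = 0.0230 and 0.00487). Of 9 venous genes 6 were tested, and 2 rose and 1 fell in NT cells, where 7.68% of all genes rose and 8.34% fell. TEK and NRP2 rose in NT cells (0.43 ± 0.12 and 0.43 ± 0.13, limma adjusted p = 0.0300 and 0.0490). NT5E, which encodes the ectonucleotidase CD73, fell in NT cells (-0.37 ± 0.11, limma adjusted p = 0.0463) and in TKO cells (-0.75 ± 0.11, limma adjusted p = 0.00247). In NKO cells on DLL4, 3 venous genes were higher than in NT and 1 lower, beside 11.4% and 9.31% of all genes. SELP, which encodes P-selectin, was among the higher ones (1.03 ± 0.24, limma adjusted p = 0.0113), and TEK was the lower one (-0.43 ± 0.12, limma adjusted p = 0.0231). SELP was also higher in NKO than in NT cells on IgG (1.02 ± 0.24, limma adjusted p = 0.0199).

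Ordered by group mean, the 10 genes fell into different sequences of groups. EFNB2 was highest in TKO and NT cells on DLL4, whose libraries overlapped, followed by TKO and NT cells on IgG and then by the NKO groups. EFNA1 was highest in the 3 groups on DLL4, in the order NT, TKO and NKO, and no neighbours in its order overlapped. BMX followed the line first, with the TKO groups above the NKO groups and these above the NT groups, and DEPP1 ran from the TKO groups through NT cells on DLL4 to the other 3 groups, which overlapped. EPHB4 was highest in NT cells on DLL4 and lowest in the TKO groups. EPHA2 was highest in NKO cells on IgG, with its middle 4 groups overlapping their neighbours. Neighbours were compared by overlap of their libraries and were not tested.

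The 10 genes did not share 1 pattern across the 12 libraries. For each, the 3 genes most like it by Pearson's r of log2(TPM + 1) were found among 10274 tested genes with a mean of at least 5 TPM in some group, as a description with no test. For EFNB2 they were CNKSR3 (0.97), TP53INP2 (0.97) and DLL4 (0.95). For EFNA1 they were ADA (0.99), FAM124B (0.98) and ITM2B (0.98), and for EPHB4 PLPPR2 (0.98), ANGPTL4 (0.97) and CCND3 (0.97). GJA4 was nearest to ACP5 (0.97), AC009093.8 (0.97) and CFAP161 (0.95), and GJA5 to RNF19B (0.98), PLPP3 (0.96) and FLT1 (0.96). The genes nearest to UNC5B were PSG9 (0.97), IL15RA (0.97) and FURIN (0.97). Those nearest to BMX were FDX1 (0.98), SLC43A3 (0.98) and BST2 (0.98), and those nearest to DEPP1 were FZD4 (0.98), STEAP1 (0.98) and STIM1 (0.98). EFNB1 was nearest to SPRYD3 (0.95), CCDC134 (0.93) and STK11 (0.93), and EPHA2 to DCHS1 (0.97), NSFL1C (0.92) and AC112777.1 (0.92). None of the 10 genes was among the 3 nearest of another. GJA5 could not be, since its highest group mean of 1.14 TPM kept it out of the genes searched. Libraries of a group share their line and coating, so these 12 points are not independent.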

How the data were processed

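Polyadenylated RNA of 12 libraries was measured. The deposited values are TPM per gene symbol, made by the authors; the submitters' processing notes name kallisto, edgeR and hg38, and the annotation and how transcripts were summed to symbols were not given in the sources used here. TPM keep no read number, so depth is unknown and the spread between the 2 libraries of a group sets the precision. Column names give line, coating and a number (2 and 3 for NT and TKO, 1 and 2 for NKO), and columns were assigned to groups by line and coating.

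Genes that reached 1 TPM in 2 or more libraries (13299) entered limma 3.58.1 (R 4.3.3) on the log2(TPM + 1) scale. The model had a mean for each of the 6 groups, and variances were moderated by empirical Bayes along a trend with expression. Two-sided p-values were adjusted by Benjamini-Hochberg across these genes, and 0.05 was the threshold. There were 6 residual degrees of freedom, and 10.8 after moderation. 10 comparisons were made. An exact permutation test of 2 libraries against 2 cannot go below 0.333. Errors of differences are standard errors of the fit. Alternatives were a pseudocount of 0.1, no filter, a mean of at least 5 TPM, median-of-ratios rescaling, quantile normalisation, leaving out KPNA2P2, a block for the replicate number, moderation without the trend, fits restricted to the libraries compared, and the omission of each library in turn. Named are the 10 genes, TSPAN14 and NOTCH1, up to 4 called genes of smallest p per list and comparison, and the 3 genes most like each of the 10. The genes and lists were chosen with earlier results of these data known. Python 3.11.15 and matplotlib 3.10.9 drew the figures.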

Additional observations from a re-analysis of the deposited data

Results flagged for a closer look

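For 4 of the 10 genes the response to DLL4 differed between lines by the limma test of the difference itself. Of all genes tested 0.526% differed between TKO and NT cells, 0.887% between NKO and NT cells and 0.150% between TKO and NKO cells. GJA4, 1 of the 4, had passed the expression filter only through NT cells on DLL4, where it is high. In NKO cells the response was below that of NT cells for EFNB2 (-3.17 on the log2 scale), GJA4 (-2.61) and DEPP1 (-1.47), and above it for BMX (0.92). In TKO cells it was below that of NT cells for GJA4 (-2.53) and DEPP1 (-1.91). EFNB2 responded more in TKO than in NKO cells (2.23). DEPP1 reached its TKO value from a high level on IgG and its NKO value from a level near 0. Only the EFNB2 difference between NKO and NT cells kept its call under every alternative that could be fitted, with limma adjusted p from 0.000310 to 0.00661. The cause of these differences was not tested.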

How the results depend on the processing

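Of 1370 alternative values of single genes, 1293 kept their side of the threshold, 65 lost a call, 12 gained one and 0 changed the direction of a call. When a mean of 5 TPM was required, only 5 of the 10 genes were tested (EFNB2, GJA4, GJA5, UNC5B and DEPP1 were not). The numbers called then were 4 for DLL4 in NT cells, 3 and 4 for TKO against NT on IgG and DLL4, 3 for NKO against NT on DLL4, and 0, 1 and 0 for the differences of response (TKO and NT, NKO and NT, TKO and NKO). A fit of only the libraries compared called 2 genes for DLL4 in TKO cells, 0 in NKO cells, 1 for NKO against NT on IgG, and 2 and 0 for the differences of response of NKO from NT and of TKO from NKO. With no filter 0 were called for DLL4 in NKO cells. A pseudocount of 0.1 called 1 and 0 for the differences of response of TKO from NT and from NKO. Where limma called 0, between 1 and 6 genes had an unadjusted p under 0.05.

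Without 1 library the numbers were 9 for DLL4 in NT cells, 2 to 3 in TKO and 0 to 1 in NKO cells. They were 4 to 5 and 5 to 6 for TKO against NT on IgG and DLL4, and 2 to 3 and 6 to 8 for NKO against NT. For the differences of response they were 0 to 2 (TKO and NT), 2 to 3 (NKO and NT) and 0 to 1 (TKO and NKO). With the replicate block 9, 4 and 1 genes were called for DLL4 in NT, TKO and NKO cells, and 3 for the difference of NKO from NT, since BMX missed the threshold. Same-numbered libraries of different groups had deviations correlated at -0.15 to 0.28, so the numbers were not taken to pair them. Over all genes DLL4 in TKO cells raised 546 and lowered 320, and 457 and 423 with KPNA2P2 left out. Except where fewer genes or libraries entered, the cause was not tested. Levels near or below 1 TPM limit what can be said of GJA5, UNC5B in the edited lines and GJA4 outside NT cells on DLL4. They also limit EFNB2 and DEPP1 in NKO cells and in NT cells on IgG, and folds of these 2 genes against NT cells on IgG rest on such levels.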
